A study of Mus musculus with 3 samples.

Results

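The DNA replication machinery was described in bulk RNA-Seq counts of the maxillary process, the facial prominence that forms most of the upper jaw. It was taken as 49 genes of origin licensing, the replication fork and nucleotide supply, out of 55401 genes counted. They were chosen by gene name and not by a rule on measured values, though earlier results of these data were known. The 3 libraries formed 1 group of E10.5 wnt1cre; Rosa26Dlx2/- embryos (OE), named replicates 1, 2 and 3 here, and each came from an RNA sample of its own. The embryos carried a Cre transgene driven by *Wnt1* and a Rosa26CAG-LSL-Dlx2-3xFlag allele, so that *Dlx2* with a Flag tag was switched on where Cre had been active, in cells of the neural crest. Epithelium, blood and vessels of the dissected tissue do not descend from the neural crest and were sequenced with it. How many embryos went into each sample was not given in the sources used here. The values describe the OE tissue and how its libraries differed. No test of genotype was made, as wild-type libraries were not analysed here.

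DNA replication starts with licensing: the origin recognition complex, *Cdc6* and *Cdt1* load the ring-shaped MCM2-7 helicase onto DNA in G1 phase, and geminin (*Gmnn*) blocks *Cdt1* afterwards so that no origin fires again. In S phase *Cdc45* and GINS turn the ring into an active helicase, polymerase alpha-primase lays primers, polymerases epsilon and delta extend them on the sliding clamp *Pcna*, and replication protein A covers the single strands. Many of these genes are transcribed under E2F transcription factors as cells leave G1, and their mRNA is high in growing embryonic tissue, where a large part of the cells is cycling.

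The promoters were searched for letters known from E2F binding. Windows from 250 bases before to 50 bases after the RefSeq start (GRCm38.p6) were read on both strands for the E2F-type letters TTTCCCGC, TTTCGCGC, TTTGCCGC and TTTGGCGC, and 41 of the 49 members had at least 1 window. Of these, 7 had more than 1, for different starts, and a gene was counted when any of its windows held the letters. *Mcm6* held 3 matches, and *Mcm7*, *Mcm5*, *Mcm3* and the clamp loader gene *Rfc3* held 2 each. Of these, 4 are shown, with the matched letters in capitals: the one with the most matches and, among the ties, the 3 with the highest level per length. The stretches are written 5′ to 3′ on the strand of the gene. They lie at chr1:128359725-128359835 for *Mcm6* (minus strand), chr5:138172031-138172058 for *Mcm7* (minus strand), chr8:75109336-75109387 for *Mcm5* (plus strand) and chr1:20820267-20820293 for *Mcm3* (minus strand).
Mcm6: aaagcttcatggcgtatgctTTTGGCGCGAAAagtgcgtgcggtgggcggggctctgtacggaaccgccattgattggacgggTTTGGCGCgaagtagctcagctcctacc
Mcm7: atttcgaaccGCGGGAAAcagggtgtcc
Mcm5: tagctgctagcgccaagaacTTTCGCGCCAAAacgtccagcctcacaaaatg
Mcm3: GCGGGAAAacttgggaagtTTTGGCGC
In *Mcm6* the first capitals are 2 matches on opposite strands that overlap by 4 bases, and another match follows. *Mcm5* has the same arrangement of 2 overlapping matches. For *Mcm7* only the match before the start is printed, as 28 bases, because the longer stretch up to the start overlaps an annotated exon. Its other match begins at base 17 after the start. The 27 bases of *Mcm3* begin at base 20 after its start and run from the first match to the last.

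E2F-type letters occurred in 17 of the 41 members with a window, or 41.5% (95% Wilson interval 27.8% to 56.6%), and in 2.61% of the 27025 genes of the table. With every window counted by itself they stood in 17 of 50 member windows (34.0%) and in 2.26% of all 32851 windows. The 17 were *Cdc6*, *Cdt1*, *Gins3*, *Lig1*, *Mcm3*, *Mcm5*, *Mcm6*, *Mcm7*, *Mcm8*, *Orc1*, *Orc3*, *Pola1*, *Pold1*, *Pold3*, *Pole2*, *Rfc3* and *Uhrf1*, so that licensing factors, helicase and polymerase subunits were all among them. Before the start alone the count was 10 of 41, or 24.4%, against 2.16% of all genes. Mitotic genes, listed for contrast (*Ccnb1*, *Plk1* and others), held the E2F-type letters in 1 of 16 genes, other replication genes outside the 49 in 7 of 32 (21.9%, interval 11.0% to 38.8%) and the E2F family itself in 3 of 6. The CCAAT letters stood in 26 of 41 members (63.4%), in 14 of 16 mitotic genes and in 41.1% of all genes. The cell cycle homology region TTTGAA, known from late cell cycle genes, stood in 5 of 41 members (12.2%), in 11 of 16 mitotic genes (68.8%) and in 20.2% of all genes. Before the start alone it stood in 5 of 41 members, in 5 of 16 mitotic genes (31.2%, interval 14.2% to 55.6%) and in 18.3% of all genes. E2F-type matches can overlap each other, and a gene was counted once for a motif however many matches or windows it had. These shares describe letters only. The windows of the lists were not matched to all genes on GC content, and a window without a match says nothing on E2F binding. Members without a window in the table were *Rfc2*, *Gmnn*, *Mcm4*, *Gins4*, *Gins1*, *Prim2*, *Gins2* and *Pole*.

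**Figure D1:**
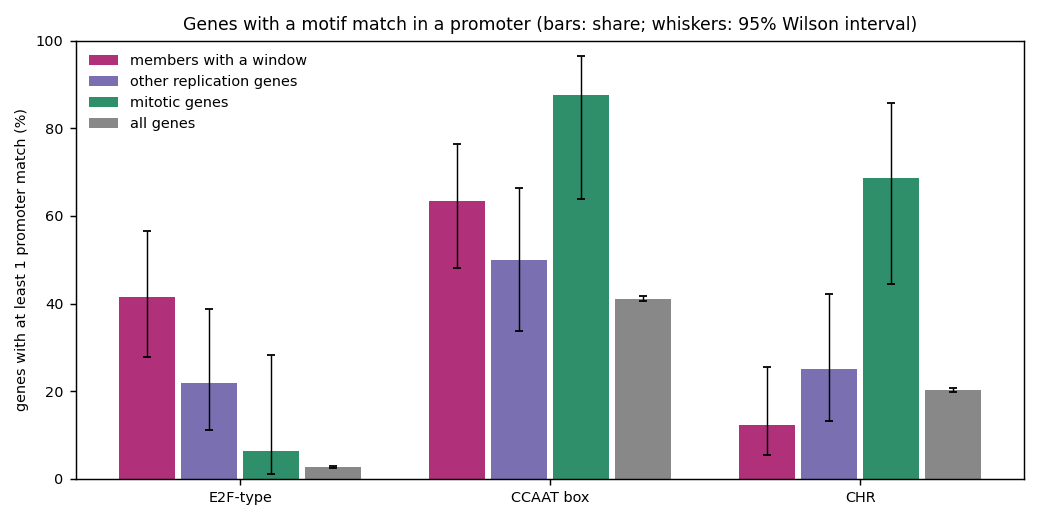
Share of genes (percent, y axis) with at least 1 match to E2F-type, CCAAT box and CHR letters in any of their promoter windows, for the members, other replication genes, mitotic genes and all genes of the table, with 95% Wilson intervals as whiskers. The E2F-type bar of the members stands at 41.5% against 2.61% of all genes, and the CHR bar of the mitotic genes at 68.8% over the whole window, a share that was 31.2% before the start alone.

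Counts on genes ranged from 35351031 to 40057435 a library, and 3 counts, taken as the limit for a gene at 0, correspond to 0.0777 to 0.0843 counts per 1000000 counts on genes (CPM). *Dlx2* was at 235, 201 and 183 CPM in replicates 1, 2 and 3, with reads of the transgene and the endogenous gene not separated. All 10 facial mesenchyme markers (*Twist1*, *Prrx1*, *Msx1*, *Dlx2* and others) were detected in every library, with a sum of 2012 to 2103 CPM. This sum includes the reads of *Dlx2* given above. Other tissues varied more: the sum of 7 neuronal markers was 245 CPM in replicate 1 and 23.9 and 34.2 in the others, that of 6 eye and forebrain markers was 21.3 in replicate 1 and 153 and 142 in the others, and that of 5 pigment cell markers was 0.648, 8.09 and 90.7, with *Tyr* and *Tyrp1* at 0 in replicate 1. The 5 red cell markers summed to 2108, 3950 and 4887 CPM, the 6 epithelial markers to 262 to 410, the 5 endothelial markers to 218 to 300 and the 5 macrophage markers to 21.4 to 35.7. The part of these tissues in the differences described here was not tested. The libraries also differed by gene length and GC content, as shown for the members after their levels.

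All 49 members passed the minimum mean count of 10, and their CPM summed to 7692, 8187 and 7886 in replicates 1, 2 and 3 (7921 ± 250 (SD, n = 3)). The highest sum was in replicate 2 and the lowest in replicate 1. Levels between genes are given as CPM per kb of union exon, the exonic bases of all annotated transcripts of a gene counted once. The median member stood at 26.9 CPM per kb, against 4.69 for all protein-coding genes tested. The range was from 0.424 (*Fen1*) to 185 (*Pcna*), 20 members were in the top 10% of protein-coding genes, and *Fen1* alone was below the median of protein-coding genes. Exons used by few transcripts lengthen the union, so levels over the longest coding transcript are added for the main cases where they differ.

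**Figure D2:**
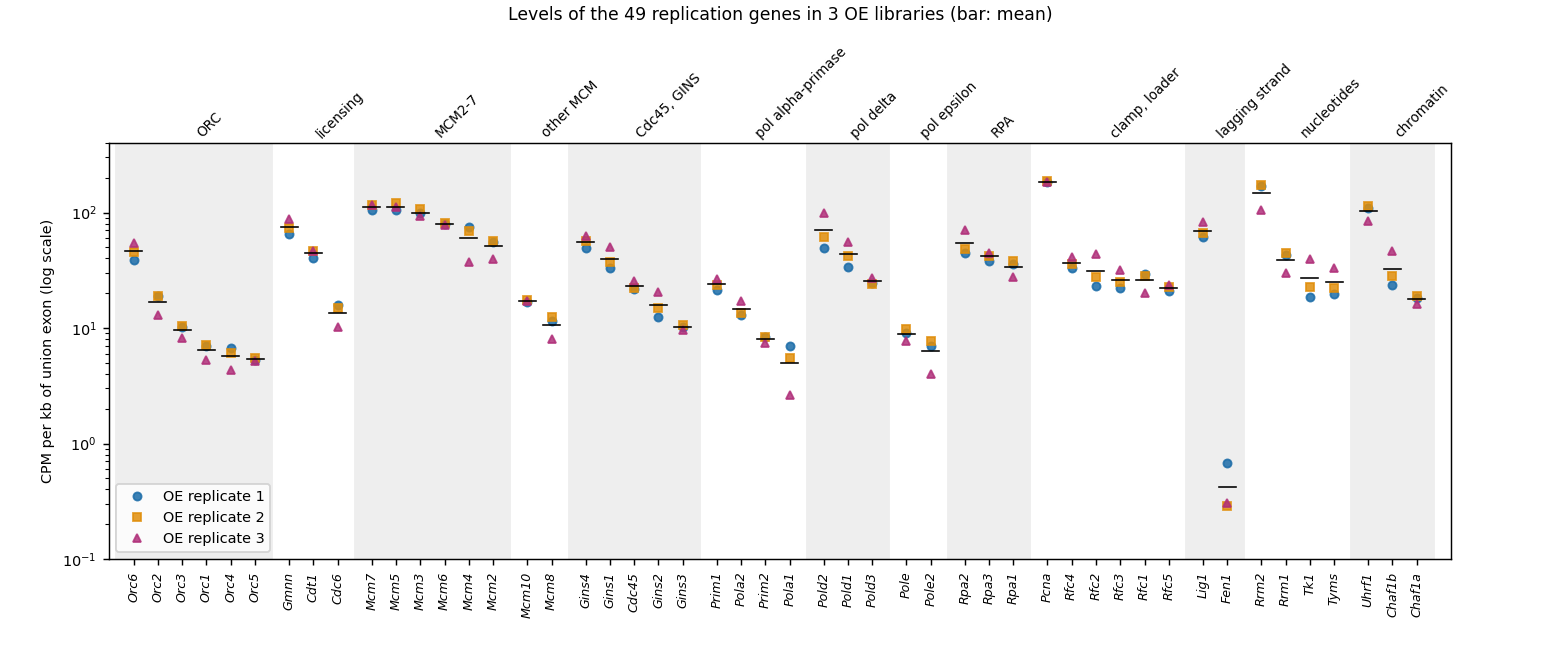
CPM per kb of union exon (log scale) for the 49 members, grouped by role, with 1 point for each OE replicate and a bar at the mean. Pcna (185) and Rrm2 (148) are highest, the MCM2-7 genes form a high block, the origin recognition complex is low except Orc6, and Fen1 (0.424) lies far below the rest.

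The origin recognition complex, which marks where replication can start, was among the low groups, with a median of 8.03 CPM per kb over its 6 subunits. *Orc6*, the smallest subunit, was the exception at 38.6, 45.7 and 54.6 CPM per kb in replicates 1, 2 and 3 (46.3 ± 8.04 (SD, n = 3)). *Orc5* was at 5.27, 5.55 and 5.23 CPM per kb, and *Orc4* at 6.75, 6.11 and 4.36. The highest subunit was 7.32, 8.24 and 12.5 times the lowest in the 3 libraries. *Orc6*, *Orc2*, *Orc3* and *Orc1* followed each other in the same order in every library, and only *Orc4* and *Orc5*, which differed by less than their spread, changed places in replicate 3. Over the longest coding transcript *Orc5* was at 15.7, *Orc3* at 25.4 and *Orc1*, the ATPase subunit that is degraded after G1, became the lowest at 7.48 CPM per kb.

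Of the licensing factors, *Cdt1* was at 40.3, 46.9 and 46.8 CPM per kb and its inhibitor *Gmnn* at 65.4, 73.0 and 87.9. *Gmnn* was thus above *Cdt1* in every library, with a *Cdt1* to *Gmnn* ratio of 0.615, 0.643 and 0.533 (0.597 ± 0.0573 (SD, n = 3)). *Cdc6*, the ATPase that joins the origin complex to the helicase, was lower at 13.6 ± 2.95 CPM per kb (SD, n = 3). In bulk tissue fewer cells of a type and less RNA per cell cannot be told apart, so these ratios are not those of a single cell: *Cdt1* protein belongs to G1 and *Gmnn* protein to S and G2 phase.

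The 6 subunits of the MCM2-7 helicase, which assemble with 1 copy each in a ring, were all abundant, between 50.9 and 112 CPM per kb. *Mcm7* was at 105, 115 and 117 CPM per kb in replicates 1, 2 and 3, and *Mcm5* at 105, 120 and 111. *Mcm3* was at 99.5, 106 and 93.9. *Mcm3* was below both others in every library, while *Mcm5* and *Mcm7* changed places between libraries. *Mcm6* was at 79.9, 80.7 and 78.8 CPM per kb, a highest to lowest ratio of 1.02 that was the smallest of all members. *Mcm4* was at 74.6, 69.7 and 37.6, and its value in replicate 3 lay well below the others, with a ratio of 1.98 between highest and lowest. *Mcm2* was at 56.0, 56.9 and 39.6, also lowest in replicate 3.
The highest MCM2-7 subunit was 1.88, 2.11 and 3.11 times the lowest in replicates 1, 2 and 3. The order *Mcm5*, *Mcm7*, *Mcm3*, *Mcm6*, *Mcm4*, *Mcm2* was found in both replicates 1 and 2. In replicate 3 *Mcm7* was above *Mcm5* and *Mcm4* below *Mcm2*. Over the longest coding transcript *Mcm7* was the highest and *Mcm4* the lowest in every library, and the order of *Mcm2* and *Mcm6* changed instead, with *Mcm2* above *Mcm6* in replicates 1 and 2 and below it in replicate 3. By that length *Mcm2* was at 105 and not 50.9 CPM per kb, and the mean fold between ends was 3.08 in place of 2.37. *Mcm7* shares 12.6% of its exonic bases with other genes, among them the microRNAs it hosts. On GRCm38 the genes lie apart: *Mcm2* on chromosome 6 (88883474 to 88898780, minus strand), *Mcm3* on chromosome 1 (20802968 to 20820312, minus strand), *Mcm4* on chromosome 16 (15623897 to 15637400, minus strand), *Mcm5* on chromosome 8 (75109569 to 75128439, plus strand), *Mcm6* on chromosome 1 (128331590 to 128359664, minus strand) and *Mcm7* on chromosome 5 (138164583 to 138172422, minus strand). Of the MCM proteins outside the ring, *Mcm10*, which helps to activate the helicase, was at 16.7, 17.4 and 17.0 CPM per kb, and *Mcm8*, which acts in recombination repair, at 10.6 ± 2.34 (SD, n = 3).

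*Cdc45*, which with GINS completes the active helicase, was at 23.2 ± 1.95 CPM per kb (SD, n = 3). The 4 GINS subunits, which occur once each in the complex, were spread widely. *Gins4* was at 49.2, 56.4 and 62.7 CPM per kb and *Gins3* at 10.2, 10.7 and 9.63. Their fold was 4.80, 5.30 and 6.50, and the order *Gins4*, *Gins1*, *Gins2*, *Gins3* was the same in every library per union exon. *Gins1* passed *Gins4* in replicate 3 over the longest coding transcript. *Gins2* shares 67.3% of its exonic bases with *Gse1*, so its level is uncertain: per union exon it was at 16.0 CPM per kb, and per kb of exon of no other gene at 48.9, which is above *Gins1* at 40.0.

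Polymerase alpha-primase starts every new strand with a short RNA-DNA primer, and its subunits differed widely in level. The primase subunit *Prim1* was at 21.5, 23.6 and 26.4 CPM per kb. The catalytic polymerase subunit *Pola1* was at 6.93, 5.53 and 2.62, the second lowest of all members. The order *Prim1*, *Pola2*, *Prim2*, *Pola1* held in every library, but the fold between its ends was 3.10, 4.27 and 10.1, with a mean of 5.82 that was 3.69 without replicate 3. The *Pola1* to *Pola2* ratio was 0.536, 0.406 and 0.154 in replicates 1, 2 and 3, and 0.258, 0.196 and 0.0742 over the longest coding transcript. Both subunits bind each other in the enzyme, and their mRNAs differed most in replicate 3.

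Polymerase delta, the main enzyme of the lagging strand, had the order *Pold2*, *Pold1*, *Pold3* in every library. Its accessory subunit *Pold2* was at 48.9, 61.3 and 99.98 CPM per kb, highest in replicate 3. *Pold3* was at 24.6, 24.2 and 27.2, with no such difference. The fold between ends was 1.99, 2.53 and 3.68. Polymerase epsilon, the leading strand enzyme, was low in its catalytic subunit *Pole* and in *Pole2*: *Pole* was at 9.08, 9.75 and 7.69 CPM per kb and *Pole2* at 6.98, 7.78 and 4.04, a fold of 1.30, 1.25 and 1.91. Its small histone-fold subunits, which are not among the 49 genes, were higher, with *Pole3* at 51.4 ± 2.92 and *Pole4* at 20.9 ± 1.60 CPM per kb (SD, n = 3). The 3 subunits of replication protein A were close to each other in replicates 1 and 2 and not in replicate 3. *Rpa2* was at 44.2, 48.2 and 70.3 CPM per kb, and *Rpa1*, the large subunit that binds DNA, at 35.6, 37.9 and 27.4. The fold was 1.24, 1.27 and 2.56, with the order *Rpa2*, *Rpa3*, *Rpa1* in every library, and over the longest coding transcript the mean fold was 2.54 in place of 1.69.

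*Pcna*, the clamp that tethers polymerases to DNA and is used as a mark of cycling cells, was the most abundant member. It was at 183, 188 and 183 CPM per kb, with a highest to lowest ratio of 1.03, and at 292 over the longest coding transcript. The pseudogene *Pcna-ps2* had 201, 177 and 198 counts against 16974, 16078 and 16520 of *Pcna*, and *Pcna-ps1* had 0. The clamp loader RFC was lower, with 5 subunits between 22.4 and 36.7 CPM per kb. *Rfc4* was at 33.1, 36.2 and 41.0 CPM per kb and *Rfc5* at 21.1, 22.6 and 23.5. *Rfc2* was at 22.9, 27.9 and 43.4, and *Rfc1*, the large subunit, at 29.5, 28.5 and 19.9, so that *Rfc2* was the highest and *Rfc1* the lowest in replicate 3 by this length. Over the longest coding transcript *Rfc3* was the highest in every library, at 60.7, 68.3 and 86.4 CPM per kb, and *Rfc2* was the lowest in replicates 1 and 2. Per union exon the fold between ends was 1.57, 1.60 and 2.18. *Pcna* was 7.39, 6.75 and 5.24 times the mean of *Rfc2*, *Rfc3*, *Rfc4* and *Rfc5*.

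**Figure D3:**
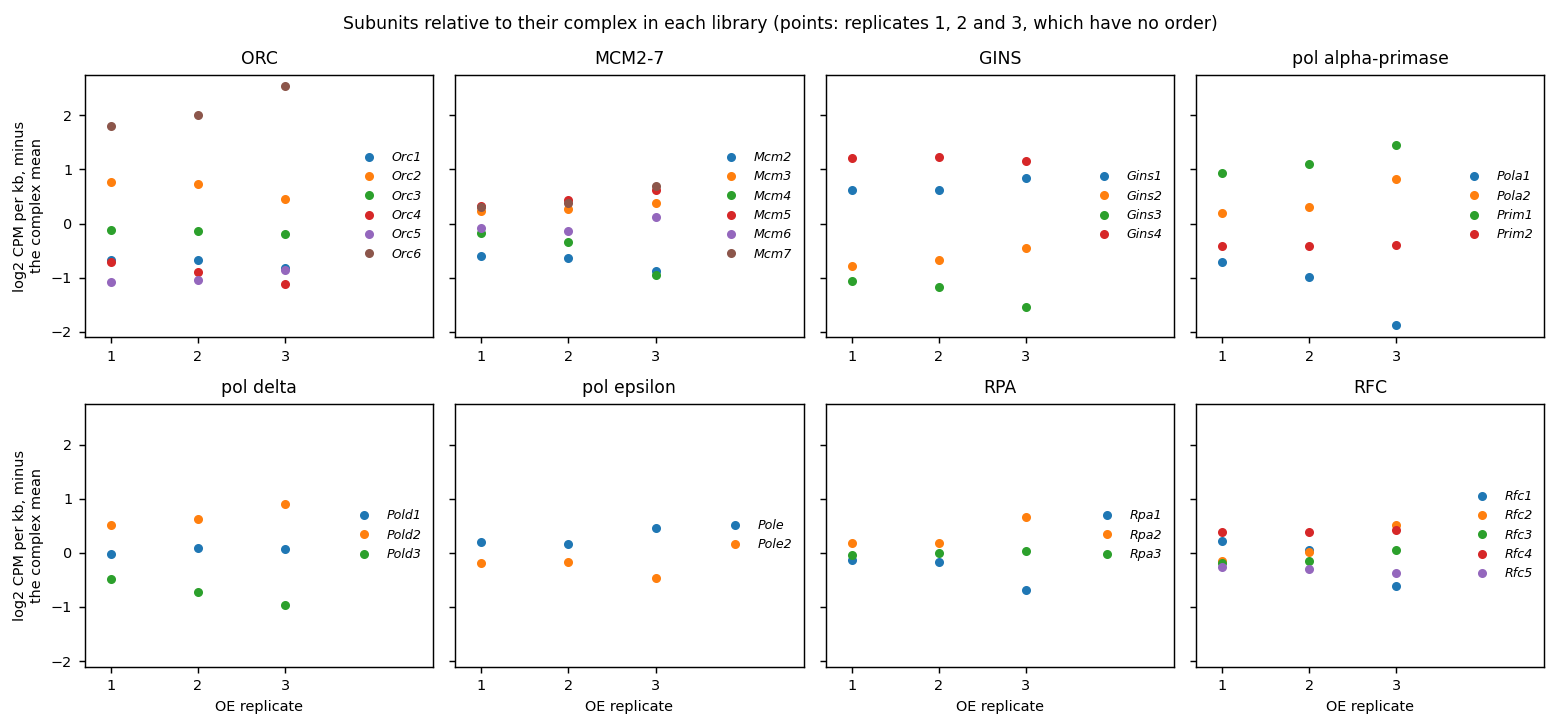
Each panel gives the log2 CPM per kb of the subunits of 1 complex minus the mean of that complex in the same library, for OE replicates 1, 2 and 3. Replicates 1 and 2 lie close to each other, while in replicate 3 Pola1, Rpa1, Mcm4 and Rfc1 lie lower and Pola2, Rpa2 and Rfc2 higher within their complexes.

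On the lagging strand, DNA ligase 1 (*Lig1*), which seals Okazaki fragments, was at 69.8 ± 10.9 CPM per kb (SD, n = 3). *Fen1*, the nuclease that removes their primers, had only 63, 25 and 28 counts, or 0.674, 0.290 and 0.307 CPM per kb. On exonic bases of no other gene its mean was 2.68 CPM per kb. Of its exonic bases, 78.8% are shared with the antisense gene *Gm10143*, which had 47, 50 and 55 counts, and 5.37% with *Tmem258*. Reads on more than 1 gene were set apart by the authors' counting, as 6.10% to 6.96% of counted reads, so the count of *Fen1* cannot be read as a level of its mRNA. Its values in the libraries are given only so that no member is left out. *Gins2* and *Chaf1a* (52.5%, with *Ubxn6*) also share most of their exonic bases, and 31 members share none.

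Nucleotide supply was led by ribonucleotide reductase, which makes deoxynucleotides from ribonucleotides. Its small subunit *Rrm2*, which is made in S phase, was at 169, 172 and 105 CPM per kb, and the large subunit *Rrm1* at 43.0, 44.4 and 30.1. Both were lowest in replicate 3. The *Rrm1* to *Rrm2* ratio was 0.254, 0.259 and 0.288, or 0.267 ± 0.0181 (SD, n = 3). Over the longest coding transcript, which leaves out most of the long *Rrm1* union exon, the mean ratio was 0.582. Thymidine kinase *Tk1*, of the salvage route, was at 18.6, 22.8 and 39.4 CPM per kb, and thymidylate synthase *Tyms* at 25.1 ± 7.15 (SD, n = 3). *Tk1* was at 97.2 and *Tyms* at 48.2 over the longest coding transcript.

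Among the genes that rebuild chromatin behind the fork, *Uhrf1*, which brings maintenance methylation to new DNA, was the fifth most abundant member at 110, 115 and 84.6 CPM per kb. The chromatin assembly factor subunits *Chaf1a* and *Chaf1b*, which place new histones, were at 17.7 ± 1.40 and 32.7 ± 12.1 CPM per kb (SD, n = 3). They were at 28.4 and 79.7 over the longest coding transcript, and on exonic bases of no other gene at 37.4 and 32.7, so the order of the pair depended on the length used. Across all 49 members the order of levels was nearly the same in replicates 1 and 2 (Spearman's rho 0.996 across genes) and less so between replicates 2 and 3 (0.953) and 1 and 3 (0.936). These are descriptions across genes, which are not independent replicates.

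The libraries were next compared with each other. A chi-square test of each gene's 3 counts against the scaled library sizes, with Benjamini-Hochberg adjustment over 17115 genes and a threshold of 0.05, called 45 of 49 members, where 81.5% of all genes were called. The 4 that were not called were *Mcm6*, *Mcm10*, *Orc5* and *Gins3*. Without replicate 3, 34 members and 48.8% of genes were called. The test measures counting noise only and finds very small differences at this depth: *Pcna* was called at a ratio of 1.03. With 1 group of libraries no spread beyond that has a test.

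The size of the differences was read as the ratio of the highest to the lowest CPM of a gene. It was at least 1.5 for 17 of 49 members, against 62.2% of all genes tested, and at least 2 for 4 members (*Pola1* 2.64, *Fen1* 2.32, *Tk1* 2.12, *Pold2* 2.05), against 34.8%. *Mcm4* came next at 1.98. The smallest ratios were 1.02 for *Mcm6*, 1.03 for *Pcna*, 1.04 for *Mcm10*, 1.06 for *Orc5* and 1.11 for *Gins3*, genes of the helicase, the clamp, helicase activation, the origin and GINS. The median ratio was 1.36 for the members, 1.69 for all genes and 1.63 for protein-coding genes. The members had a median of 116 CPM and protein-coding genes one of 23.4, and the shares were not matched on this. The median biological coefficient of variation, which leaves counting noise out, was 0.240 for the members and 0.339 for all genes. The estimate of each gene is drawn toward values shared between genes, so it is not the gene's own variation. For *Mcm6* it was 0.217, where the SD of its CPM was 1.20% of the mean. Without replicate 3, 1 member (*Fen1*) and 16.7% of genes passed a ratio of 1.5, without replicate 1 the numbers were 9 and 44.3%, and without replicate 2 they were 16 and 56.7%.

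Each library was then set against the mean of the other 2 on log2 CPM. Replicate 1 was at least 1.5-fold above for 2 members (*Pola1* and *Fen1*, background 17.0% of genes) and below for 4 (*Pold2*, *Rfc2*, *Tk1*, *Chaf1b*, background 18.4%). Replicate 2 was above for 0 (6.02%) and below for 1 (*Fen1*, 7.29%). Replicate 3 was above for 6 members (24.9%) and below for 4 (24.6%). The medians over members were -0.04, 0.04 and -0.02 for the 3 libraries, so the medians lay near 0 in every library, while members at least 1.5-fold to both sides were found in replicates 1 and 3. Without replicate 2, replicates 1 and 3 differed by 1.5-fold for 16 members, without replicate 1 the other pair differed for 9, and without replicate 3 for 1. With library totals in place of TMM scaling the split in replicate 3 was 4 above and 12 below (20.7% and 30.3% of all genes), and in replicate 1 it was 3 and 0 (22.8% and 14.2%). That scaling moved the median of all genes to -0.16 in replicate 3 and 0.13 in replicate 1.

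**Figure D4:**
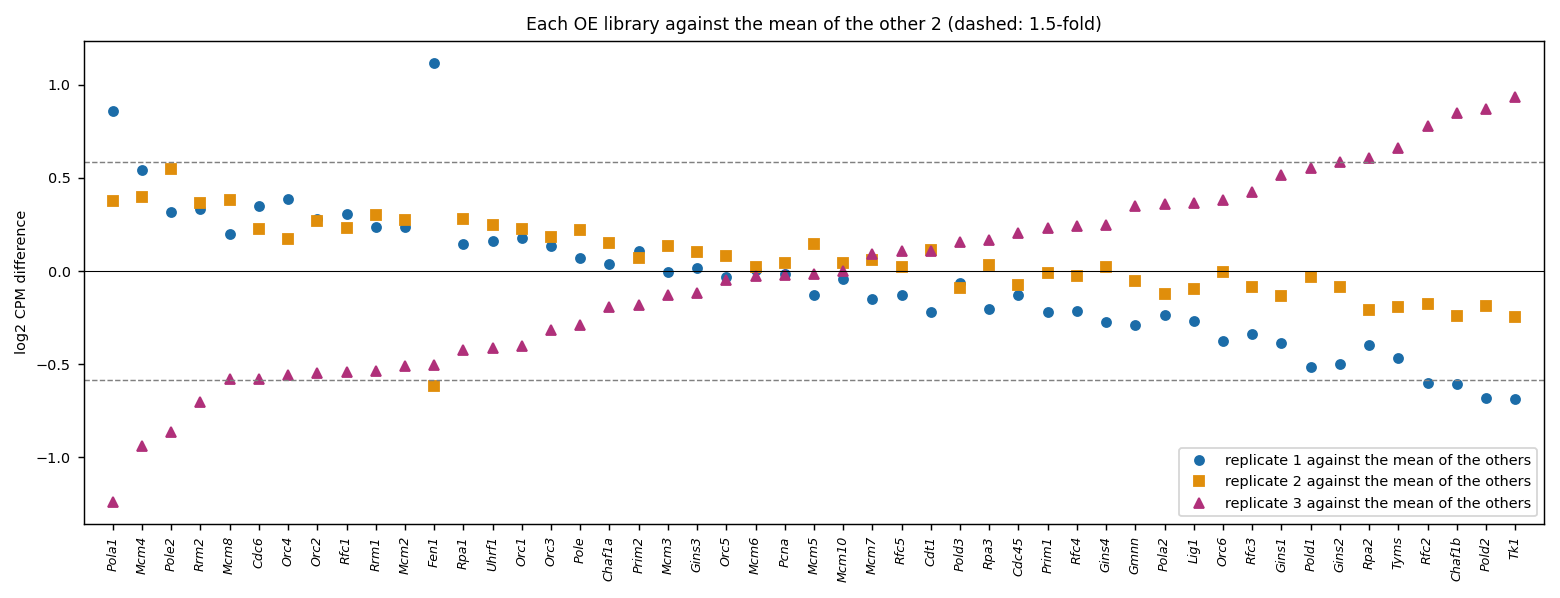
The log2 CPM of each member in 1 OE replicate minus the mean of the other 2 (y axis), with members in the order of replicate 3 and dashed lines at 1.5-fold. Replicate 3 runs from -1.24 for Pola1 to 0.94 for Tk1, and replicate 2 stays within 1.5-fold except for Fen1.

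The members that stood out in replicate 3 came from different steps of replication. Above the others were *Tk1* (log2 difference 0.94), *Pold2* (0.87), *Chaf1b* (0.85), *Rfc2* (0.78), *Tyms* (0.66) and *Rpa2* (0.61). Below were *Pola1* (-1.24), *Mcm4* (-0.94), *Pole2* (-0.87) and *Rrm2* (-0.70). Subunits of some complexes were found on both sides, while the 3 members of polymerase delta were positive and both of polymerase epsilon negative. *Pola1* was at -1.24 and *Pola2* at 0.36, *Rfc1* at -0.54 and *Rfc2* at 0.78, *Rpa1* at -0.42 and *Rpa2* at 0.61, and *Mcm4* at -0.94 and *Mcm7* at 0.09, where the sign of *Mcm7* turned with library totals (-0.04). In all, 23 members were positive and 26 negative, and 20 were positive with library totals.

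Gene composition moved with these differences. The 4 members at least 1.5-fold lower in replicate 3 had a longest coding transcript of 41.5% to 46.0% GC, and the 6 that were higher had 47.8% to 58.7%, so these 2 sets did not overlap in GC content. Their transcript lengths did overlap, at 1706 to 5346 and 1440 to 4995 bases, and so did the GC content of all 26 negative members (36.8% to 55.5%) and all 23 positive ones (40.4% to 60.7%). Across the 49 members the log2 difference of replicate 3 had a Pearson's r of 0.461 with GC content and -0.431 with the log10 length of the longest coding transcript. Over all genes the values were 0.381, on 17101 genes, and -0.502, on those of them with a coding transcript. For genes without one, the GC content was that of their longest transcript. Replicate 1 had the opposite signs, at -0.404 and 0.386 across members and -0.281 and 0.411 over all genes, and so had replicate 2, at -0.402 and 0.361 and at -0.241 and 0.217. Each library was set against the mean of the others, so the 3 differences of a gene sum to 0. These coefficients are descriptions across genes of the same libraries. After a smooth trend on exon length and this GC content, fitted over all genes, was removed, *Rfc2* (1.02), *Tyms* (1.04), *Tk1* (0.82) and *Chaf1b* (0.79) were still at least 1.5-fold higher in replicate 3, and *Mcm4* (-0.67) and *Pole2* (-0.66) lower. *Fen1*, with few counts, went from -0.50 to -0.85. The share of all genes 1.5-fold away in replicate 3 after this removal is not given here. *Pold2* went to 0.19, *Rpa2* to 0.48, *Pola1* to -0.49 and *Rrm2* to -0.57. *Rfc1* went to -0.10 and *Rpa1* to -0.13, so the low sides of these pairs lay near 0, and *Pole* turned from -0.29 to 0.11. The median over members then was -0.15, 0.00 and 0.16 in replicates 1, 2 and 3, and the median ratio was 1.28 against 1.45 for all genes. With the trend removed 12 members passed a ratio of 1.5, against 46.0% of all genes. *Orc5* was among them at 1.55, and of the other members with the smallest ratios *Mcm10* was then at 1.42, *Mcm6* at 1.24, and *Pcna* and *Gins3* at 1.07 each.

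**Figure D5:**
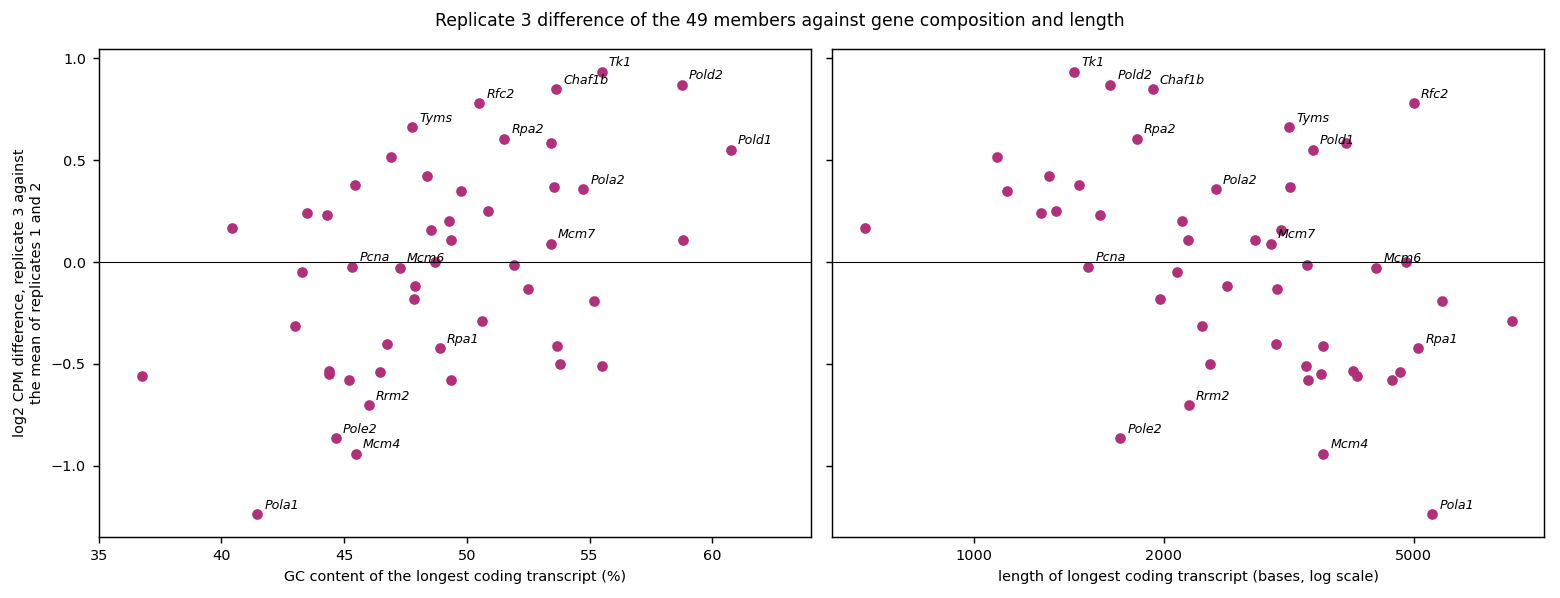
The log2 CPM difference of replicate 3 against the mean of replicates 1 and 2 (y axis) for the 49 members, plotted over the GC content in percent (left) and the length on a log scale (right) of the longest coding transcript. The points scatter widely, with a Pearson's r of 0.461 on the left and -0.431 on the right: Pola1 (41.5% GC) lies lowest and Pold2 (58.7%) high, while Rpa3 (40.4%) lies above 0 at 0.17 and Mcm2 (55.5%) below at -0.51.

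Of 40 other replication genes, listed for the same pathway and not among the members, 39 were tested. The chi-square test called 36 of these, against 81.5% of all genes. Their median level was 14.8 CPM per kb and their median ratio between libraries 1.34, and 12 passed a ratio of 1.5, against 62.2% of all genes. Highest per length were the histone chaperone *Nasp* at 127, 123 and 125 CPM per kb, the dUTP hydrolase *Dut* at 90.9, 107 and 136, and the Pcna-binding factor *Pclaf* at 71.5, 69.0 and 49.9. Lowest were *Gmnc*, a relative of geminin in multiciliated cells, at 0 counts in every library, *Mcmdc2*, known from meiosis, at 54, 61 and 59 counts, and *Pold4*, the small polymerase delta subunit, at 10, 9 and 31 counts. The largest ratios were 3.41 for the RNase H2 subunit *Rnaseh2c* (24.9, 31.7 and 85.2 CPM per kb, with 24.8% of its exonic bases in other genes), 3.25 for *Pold4*, 3.15 for the reductase subunit *Rrm2b* (0.896, 0.563 and 0.285), 2.41 for deoxycytidine kinase *Dck* (26.6, 21.6 and 11.0) and 2.33 for *Rnaseh2a* (15.3, 18.2 and 35.6). *Rrm2b*, which serves resting cells and DNA repair, was thus far below its S phase relative *Rrm2* in every library.

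The E2F family, whose letters were counted in the promoters, was expressed in all of its 8 members. Of these, 3 passed a ratio of 1.5, against 62.2% of all genes. Per union exon the repressor *E2f4* was highest at 57.2, 65.1 and 63.5 CPM per kb, followed in mean level by *E2f5* at 35.7, 39.4 and 23.6 and the activator *E2f1* at 15.7, 18.5 and 18.1. *E2f7* had the lowest mean, at 5.08, 4.20 and 2.37, a ratio of 2.14, with *E2f8* at 5.42, 5.82 and 3.99 and *E2f2* at 4.33, 5.91 and 7.81. *E2f2* had its highest and *E2f7* its lowest value in replicate 3. By the longest coding transcript *E2f4* was still highest, but *E2f6* came next at a mean of 38.3 CPM per kb, above *E2f5* at 33.0, and *E2f2* was below *E2f7*, at 6.20 and 6.40.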

How the data were processed

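RNA-Seq counts of 3 libraries of E10.5 OE maxillary processes were used. The submitters' processing notes name FastQC, STAR 2.7.3a, HTSeq 0.12.4 and mm10, and the authors deposited raw counts as whole numbers, not normalized, for every gene. The annotation release and the strand setting were not given in the sources used here. The libraries were made with a poly-A selection and random priming, without molecular identifiers, so the limit of 3 counts covers counting error only. The Wilson intervals concern shares of genes and not reads. Rows that name no gene (14.2%, 15.7% and 16.4% of counted reads) were left out of library sizes.

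Identifiers were matched to GENCODE M21 (GRCm38) without the version: 55141 of 55401 matched and 260 did not. CPM used edgeR 4.0.16 with TMM factors of 1.06, 1.01 and 0.940. Genes whose mean count reached 10 were tested by chi-square against the scaled library sizes, with Benjamini-Hochberg adjustment. Log2 CPM used a prior count of 2. An intercept-only edgeR model gave the coefficient of variation of each gene, drawn toward values shared between genes (common value 0.371). The smooth trend (length, GC content) came from mgcv 1.9.3. Levels were per kb of union exon, or of the longest coding transcript, which also gave the GC content (the longest transcript for genes without one). Promoters were those of RefSeq. The steps were tested on simulated data. R 4.3.3, DESeq2 1.42.0 (size factors as an alternative), Python 3.11.15, pandas 2.3.3, scipy 1.17.1 and matplotlib 3.10.9 were used.

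The members and lists were chosen with earlier results of these data known. Values in every library were given by rule for MCM2-7, the 5 highest and 5 lowest members per length, the 5 with the largest and 5 with the smallest ratio, the ends of each complex, and *Cdt1*, *Gmnn*, *Rrm1*, *Rrm2* and *Pcna*, and for the other replication genes, other DNA polymerases and E2F family the 3 highest and 3 lowest and up to 5 past a ratio of 2. *Pola1* to *Pola2* and the other pairs within complexes, members in replicate 3, *Pole3*, *Pole4*, *E2f6* and the mitotic genes, which the rule does not cover, were named after their values were seen. Alternatives were other scalings, filters, thresholds, prior count, lengths and promoter window, removal of the trend, and leaving out each library. Replicate numbers follow the order of accessions and only name libraries. The chi-square p-values measure the spread between these samples against sampling noise, and nothing says that the samples came from different litters.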

Additional observations from a re-analysis of the deposited data

How the results depend on the processing

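No test between groups was possible, since the libraries form 1 group, and no paired analysis, because replicate numbers only name libraries. The median log2 difference of the members changed sign in replicate 1 with library totals. In replicate 3 it changed sign under some settings, among them removal of the trend. Of 466 alternative values for 73 results, 387 stayed close and 79 moved, which means by more than 1.5 times for a count of members, out of the Wilson interval for a motif share, and by more than 1 SD between libraries for other values, however small that SD was. Of the 79, 54 were levels of single members, 38 of those 54 from the longest coding transcript. The counts of members called ranged from 34 to 44 without 1 library, where 48.8% to 77.7% of all genes were called. Members past a ratio of 1.5 (17) numbered 1 to 16 without 1 library, against 16.7% to 56.7% of all genes. At a ratio of 2 they numbered 4, against 34.8%. The median ratio of all members was 1.08 to 1.34 without 1 library, against 1.17 to 1.61 for all genes. With library totals, the median log2 difference was 0.0774 in replicate 1 and -0.15 in replicate 3, and 3 and 16 members were 1.5-fold away there. The shares of all genes under that scaling are given above with the split of each library. With the trend removed, the medians were -0.15 and 0.16, and 0 members were 1.5-fold away in replicate 2, where the share of all genes is not given here. Without 1 library, the median log2 difference was -0.0948 to -0.0248 in replicate 1 and 0.0289 to 0.0948 in replicate 2, and members 1.5-fold away numbered 1 to 16, 1 to 9 and 9 to 16 in replicates 1, 2 and 3. Between the remaining libraries 16.7% to 56.7% of all genes passed a ratio of 1.5. Over the longest coding transcript, the median level was 49.7 CPM per kb, the mean *Cdt1* to *Gmnn* ratio 0.659, *Rrm1* to *Rrm2* 0.582, and the mean fold 3.08 in MCM2-7, 2.49 in RFC and 2.54 in RPA. On exonic bases of no other gene, an alternative chosen after seeing the data, as were leaving out *Fen1* and counting every promoter window by itself, the median level was 33.9. E2F-type letters before the start only were in 24.4% of members. The part of other tissues in the differences of replicate 3 was not tested. Depth was low for *Fen1* alone, at 25 to 63 counts, while the other members had at least 438 counts in every library.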

Other observations

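Mitotic genes, which act after replication and were listed for contrast, had a median of 43.5 CPM per kb over 20 genes, led by *Cdc20*, an activator of the anaphase-promoting complex, at 179 ± 22.0 (SD, n = 3), and the lowest was the kinetochore gene *Cenpf* at 9.58 ± 2.26. All 20 were called by the chi-square test (81.5% of all genes), 6 passed a ratio of 1.5 (62.2%), and the median ratio was 1.35 (1.69 for all genes). Their median log2 difference in replicate 3 was -0.31, and -0.04 after the trend on length and GC content was removed. *Kif20a*, a kinesin of cell division, had the largest ratio at 2.06.

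Of 12 DNA polymerases of repair, bypass and mitochondria 11 were tested, with a median level of 3.86 CPM per kb. Of these, 10 were called (81.5% of all genes) and 6 passed a ratio of 1.5 (62.2% of all genes). The repair polymerases *Poll* (14.4, 17.9 and 26.9 CPM per kb in replicates 1, 2 and 3) and *Polb* (8.69, 10.8 and 13.0) and the mitochondrial *Polg* (7.16, 6.64 and 5.06) were highest. *Polk* (2.05, 1.85 and 1.15) and *Poln*, with 16, 27 and 43 counts, were lowest of those tested, and *Dntt*, which acts in lymphocytes, had 1, 0 and 0 counts. *Rev1*, which handles damaged DNA, had a ratio of 2.31 (5.29, 5.28 and 2.29 CPM per kb), with 26.6% of its exonic bases in other genes, and *Poln* one of 2.75.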
